A study of Homo sapiens with 18 samples.

Results

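The mitochondrial ribosome has its own set of proteins, which in human cells are encoded by nuclear genes with the symbols MRPL (large subunit) and MRPS (small subunit). These proteins are made in the cytosol, imported into mitochondria and assembled there with ribosomal RNA from mitochondrial DNA. The finished particle translates the few respiratory chain and ATP synthase subunits that mitochondrial DNA encodes. Some members have relatives in the bacterial ribosome and others are found in mitochondria alone.

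Of the 19775 genes that at least 1 probe set named alone, 75 were mitochondrial ribosomal protein genes, 48 with MRPL and 27 with MRPS symbols. They were chosen by symbol (MRPL or MRPS, digits and at most 1 further letter), without regard to their signal. Probe sets that name several genes were left out, so MRPL53 and MRPS24 had none of their own. Each gene was represented by the brightest of its probe sets, meaning the highest mean over all arrays, out of 140 probe sets for the 75 genes. Signals of different probe sets do not share a scale, so the order of their signals is not read as an order of RNA levels between genes.

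The arrays were made from K562 cells, a human chronic myeloid leukemia line that grows in suspension and has erythroid features. Every group carried 1 of 3 retroviral vectors and was purified through the NGFR marker of the vector: LCALRwtIDN with wild-type calreticulin (CALRwt), LCALRdel52IDN with the deletion mutant (CALRdel52) or LCALRins5IDN with the insertion mutant (CALRins5). The vectors add calreticulin to the cells' own copy, and the control cells therefore also overexpress the wild-type protein. Cells of each vector were either untreated or exposed to Melittin (MEL), the main toxin of bee venom, at 5 μg/mL for 24 h to induce oxidative stress, with 3 arrays in each of the 6 groups. The sources differ on whether untreated RNA was taken directly after sorting or after culture, so the effect of MEL and that of time in culture cannot be told apart for certain. The study's methods place the untreated samples in independent experiments and do not say so for the MEL samples, and the labels name no cultures, so the spread among MEL arrays may be technical. Bulk arrays cannot tell less RNA per cell from fewer cells of a kind.

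The values were log2 RMA signals, so that differences are log2 fold changes. Erythroid genes were bright on the arrays (mean signal of HBZ 11.99, TFRC 12.33, TAL1 10.35 and GATA1 8.98, with EPOR at 7.72). Markers of other cell types were mixed, with CD14, MS4A1 and COL1A2 at 3.50 to 4.09 and COL1A1 at 7.42. EPCAM (11.15), LYZ (10.11), KRT8 (9.10) and CD3D (8.87), also on that list, were bright. The probe set that names CALR alone gave 5.75 to 6.88 and that of NGFR 3.25 to 3.97, and neither was used as a check of the vectors. For GAPDH the signal of the 3' minus the 5' probe set, a difference that grows as RNA is degraded, was 0.31 to 0.41 on untreated arrays and 0.42 to 1.33 with MEL, the highest being CALRins5 MEL replicate 1. The array distributions were also narrower with MEL, with a mean interquartile range of 3.53 to 3.56 per group against 3.67 to 3.69 in untreated cells.

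Most mitochondrial ribosomal protein genes were lower after MEL. Over the 3 vectors 56 of the 75 genes passed the test as lower, 4 passed as higher and 15 did not pass, tested with limma at an adjusted p of 0.05 (Benjamini-Hochberg, with all 54675 probe sets counted). Among the brightest probe sets of all genes, 18.1% were called lower and 18.6% higher (3588 and 3671 of 19775). After centring the arrays on their medians these were 4309 and 2366 genes, and 63 members were called lower and 2 higher. After a repeated quantile normalization they were 2958 and 3886 genes, and 42 members were called lower and 7 higher. In the values as deposited the median log2 difference of the members was −0.22, with a range of −0.79 to 0.26, beside a median of 0.04 over all genes. In total 68 of the 75 members lay below 0. Their brightest probe sets include 42 that end in s_at, which marks probes that can bind several transcripts. A further 3 end in x_at, which marks probes prone to cross-hybridise. With all such probe sets left out, 44 members were measured, of which 24 were called lower and 4 higher (limma). The share over all genes was not computed for this setting.

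Bright probe sets in general leaned to lower values with MEL, and the members are bright. All 75 had a mean signal above the median probe set, between 7.59 and 11.95. Of the 5713 genes whose brightest probe set fell in that range, 37.4% were called lower and 18.8% higher, with a median of −0.07. In the narrower range of 9.14 to 10.45, the interquartile range of the members, 29 of 37 members were called lower, beside 39.9% of 1739 genes. With the GAPDH difference as a covariate 38 members were called lower and 2 higher, beside 10.9% and 7.47% of all genes. This difference was larger on every MEL array than on any untreated array, so the fit cannot tell RNA quality and MEL apart.

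**Figure D1:**
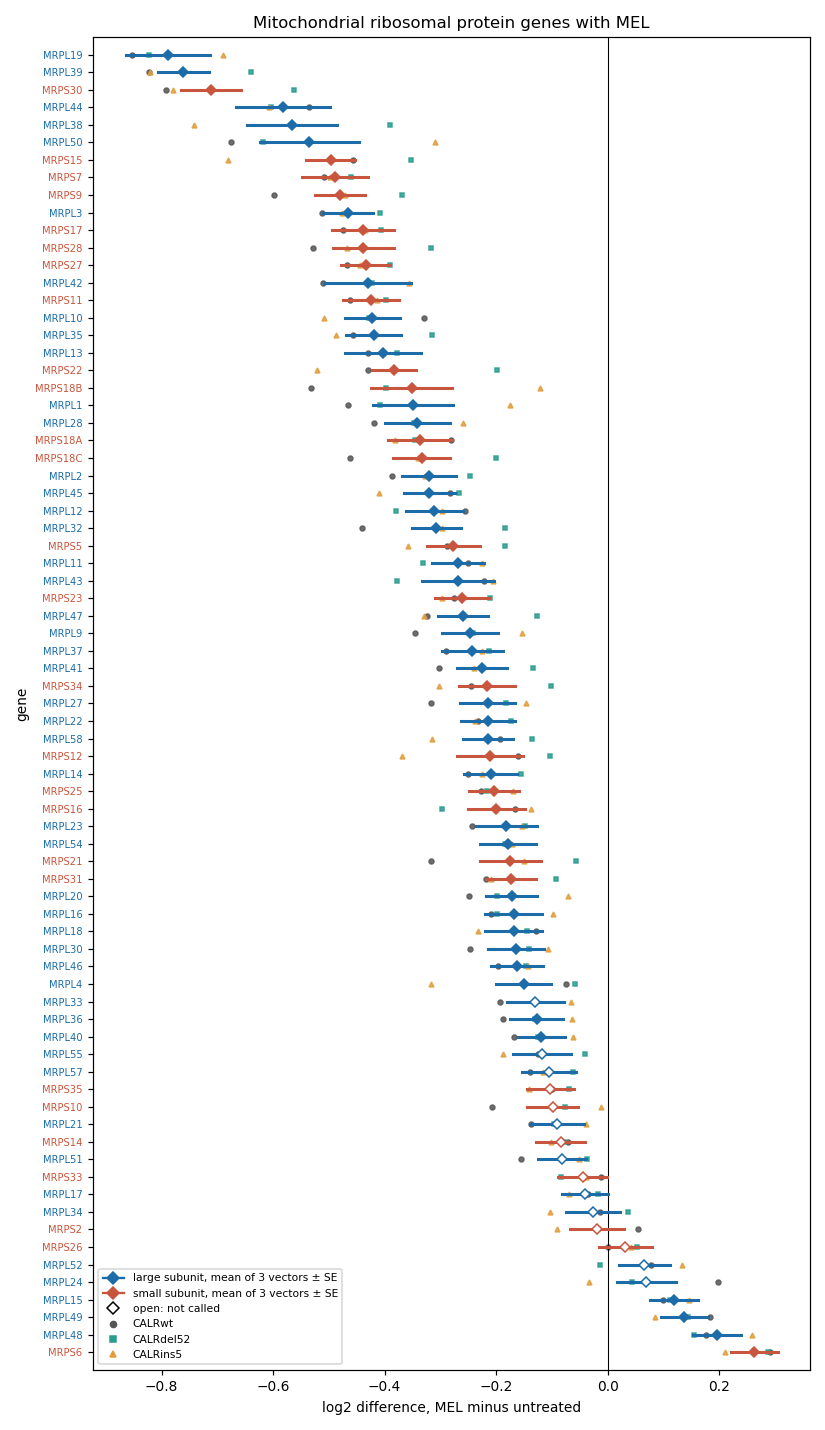
Log2 difference of MEL minus untreated for each of the 75 genes, ordered by value. Diamonds with bars are the mean over the 3 vectors ± SE (limma), filled where called, and the small symbols are the single vectors; the values run from −0.79 for MRPL19 to 0.26 for MRPS6, and 56 filled diamonds lie below 0 and 4 above.

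Both subunits were lower. In the large subunit 36 of 48 genes were called lower and 3 higher, with a median of −0.21. In the small subunit 20 of 27 were called lower and 1 higher, with a median of −0.26. MRPS30 and MRPS18A carry small-subunit symbols although their proteins sit in the large subunit. With both moved there, 38 of 50 large-subunit genes were called lower and 3 higher (median −0.21), and 18 of 25 small-subunit genes were called lower and 1 higher (median −0.22).

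The direction was shared by proteins with and without bacterial relatives. Of the large-subunit proteins known from mitochondria alone, 15 of 21 genes were called lower and 2 higher, with a median of −0.23. Of those with bacterial relatives 23 of 29 were called lower and 1 higher, with a median of −0.21. In the small subunit the counts were 6 of 9 lower and 0 higher for the mitochondria-specific proteins, with a median of −0.20, and 12 of 16 lower and 1 higher for those with bacterial relatives, with a median of −0.31.

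The mean signal of each subunit over its genes moved in the same way on the single arrays. For the large subunit it was 9.85 ± 0.03 in untreated and 9.58 ± 0.06 in MEL-treated CALRwt cells (SD, n = 3 arrays). With CALRdel52 it was 9.78 ± 0.07 and 9.57 ± 0.08, and with CALRins5 9.87 ± 0.04 and 9.64 ± 0.04. The small subunit went from 9.97 ± 0.01 to 9.68 ± 0.06 with CALRwt, from 9.88 ± 0.07 to 9.67 ± 0.06 with CALRdel52 and from 10.01 ± 0.04 to 9.73 ± 0.05 with CALRins5. No MEL array of a vector reached the lowest untreated array of that vector in either subunit.

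**Figure D2:**
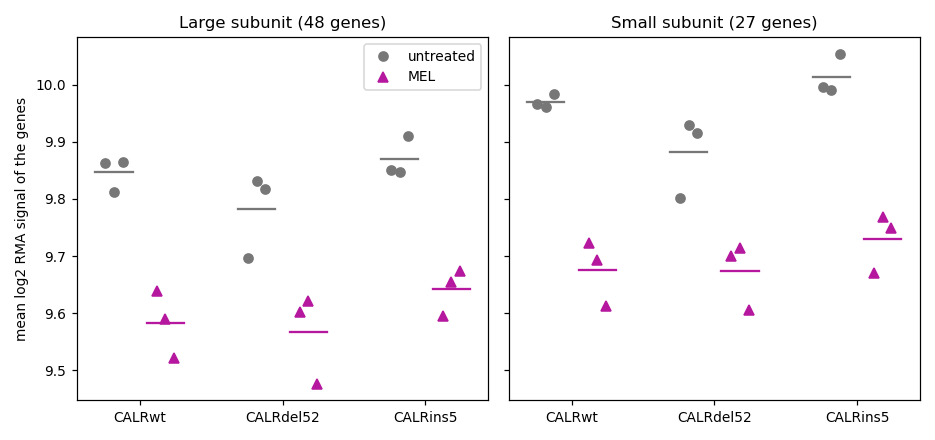
Mean log2 RMA signal of the 48 large-subunit genes (left) and the 27 small-subunit genes (right) on each array, by vector; circles are untreated arrays, triangles are MEL arrays and lines are group means. In the large subunit the untreated arrays lie between 9.70 and 9.91 and the MEL arrays between 9.48 and 9.67.

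The lowest value among all members was that of MRPL19, a large-subunit protein related to bacterial L19. Its signal was 8.83, 8.58 and 8.94 on the untreated CALRwt arrays and 8.15, 7.91 and 7.73 with MEL. It was 8.54, 8.83 and 8.67 against 7.88, 8.11 and 7.59 in CALRdel52 cells, and 8.85, 8.85 and 8.96 against 8.24, 8.19 and 8.16 in CALRins5 cells. All 9 MEL arrays lay below all 9 untreated arrays. The difference was −0.79 ± 0.08 (SE, limma adjusted p = 4.8e-07), which leaves 0.579 of the untreated signal. Its other probe sets were dimmer. The one with a mean signal of 5.25 gave −0.41 (limma adjusted p = 0.00093). The one with a signal of 4.99 gave 0.14 (limma adjusted p = 0.23).

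MRPL39, a large-subunit protein found in mitochondria alone, had the smallest adjusted p of the members. It read 10.22, 10.25 and 10.31 in untreated CALRwt cells and 9.48, 9.42 and 9.41 with MEL. In CALRdel52 cells it read 9.90, 10.04 and 10.06 against 9.39, 9.38 and 9.32, and in CALRins5 cells 10.33, 10.42 and 10.49 against 9.49, 9.64 and 9.63. The groups of treatment did not overlap, and the loss of 0.64 in CALRdel52 cells stood beside 0.82 in each of the other vectors. Over the 3 vectors the value was −0.76 ± 0.05 (SE, limma adjusted p = 3.1e-09). Its other probe set was dim and gave −0.16 (limma adjusted p = 0.11).

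MRPS30, a large-subunit protein in spite of its symbol, read 9.76, 9.80 and 9.89 in untreated CALRwt cells and 9.09, 9.08 and 8.89 with MEL. The values were 9.53, 9.73 and 9.59 against 9.05, 9.19 and 8.93 in CALRdel52 cells, and 9.93, 10.00 and 10.04 against 9.12, 9.32 and 9.18 in CALRins5 cells. Every MEL array again lay below every untreated array. The difference was −0.71 ± 0.05 (SE, limma adjusted p = 3.5e-08).

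In the small subunit itself the lowest value was that of MRPS15, related to bacterial S15, at −0.50 ± 0.04 (SE, limma adjusted p = 2.2e-07). Its untreated arrays ranged from 11.18 to 11.29 with CALRwt, from 11.03 to 11.13 with CALRdel52 and from 11.43 to 11.48 with CALRins5, whereas the 9 MEL arrays ranged from 10.67 to 10.89. The untreated levels thus differed between the vectors more than the MEL levels did. This probe set (mean signal 11.02) ends in s_at, which marks probes that can bind several transcripts, as do a pair of further ones that were also called lower, at −0.81 (signal 8.81) and −0.94 (signal 4.39). The single probe set without that mark was the dimmest of the 4, with a signal of 4.05, and gave −0.045 (limma adjusted p = 0.75 with x_at and s_at probe sets left out).

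MRPS7 and MRPS9, related to bacterial S7 and S9, changed by −0.49 ± 0.06 and −0.48 ± 0.04 (SE), and both were called in each vector. MRPS17, MRPS28, MRPS27 and MRPS11 followed with −0.44, −0.44, −0.43 and −0.42, again called in each vector. MRPS27 is a mitochondria-specific protein with pentatricopeptide repeats, and the other 3 have bacterial relatives. MRPS17, MRPS28 and MRPS27 are named here after their values were seen.

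Further large-subunit genes with marked losses were MRPL44 (−0.58 ± 0.08), which resembles ribonuclease III, MRPL38 (−0.57 ± 0.08) and MRPL50 (−0.54 ± 0.09), which are all mitochondria-specific, and MRPL3 (−0.47 ± 0.05, SE for all), related to bacterial L3. MRPL3 and MRPL44 were called in each vector. MRPL38 passed in CALRwt and CALRins5 cells and had −0.39 with an adjusted p of 0.077 (limma) in CALRdel52 cells. MRPL50 passed in CALRwt and CALRdel52 cells and had −0.31 with an adjusted p of 0.23 (limma) in CALRins5 cells.

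The 4 genes called higher had small differences. MRPS6, related to bacterial S6, read 9.98, 10.06 and 9.96 in untreated CALRwt cells and 10.34, 10.29 and 10.24 with MEL. In CALRdel52 cells it read 10.08, 10.18 and 10.06 against 10.41, 10.36 and 10.41, and in CALRins5 cells 10.17, 10.06 and 10.10 against 10.33, 10.30 and 10.33. All MEL arrays lay above all untreated arrays, and the difference was 0.26 ± 0.04 (SE, limma adjusted p = 0.00010), a 1.20-fold rise.

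MRPL48, a mitochondria-specific protein of the large subunit, rose by 0.20 ± 0.04 (SE, limma adjusted p = 0.0018). Its untreated arrays ranged from 9.86 to 9.95 with CALRwt, from 10.16 to 10.27 with CALRdel52 and from 9.78 to 9.92 with CALRins5, and the MEL arrays from 10.08 to 10.11, from 10.29 to 10.41 and from 10.10 to 10.18. Within each vector the treatments did not overlap, but untreated CALRdel52 cells lay above MEL-treated CALRwt cells. MRPL49 (0.14 ± 0.04) and MRPL15 (0.12 ± 0.04, SE for both) also passed, with adjusted p of 0.018 and 0.042 (limma), and were not called in any single vector. The call of MRPL15 was lost in 15 of 29 alternatives, 12 of them fits without 1 array, with an adjusted p of up to 0.29, and that of MRPL49 in 3.

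**Figure D3:**
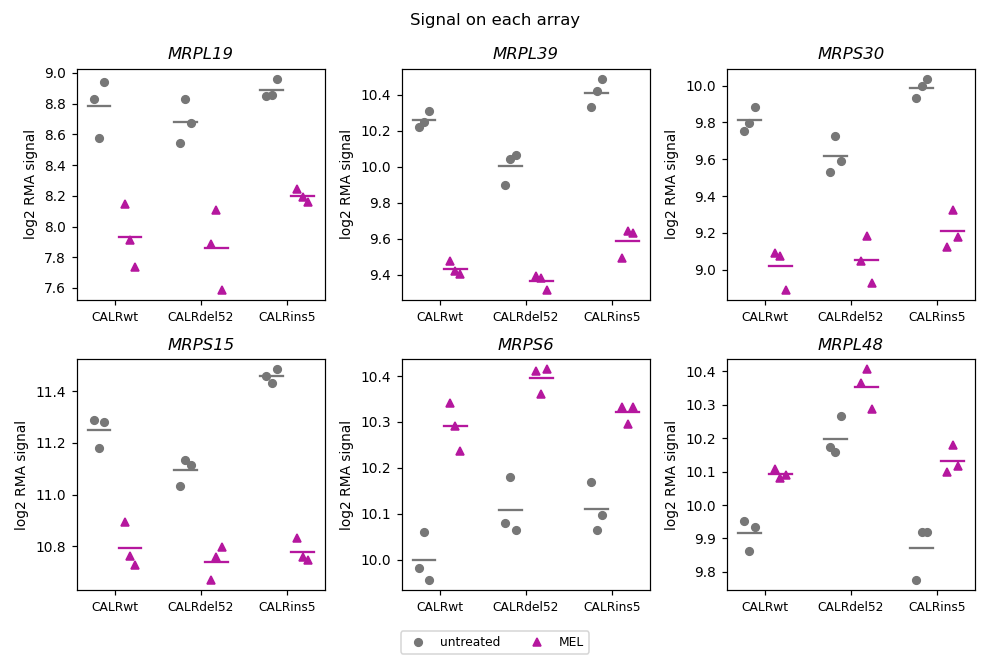
Log2 RMA signal of MRPL19, MRPL39, MRPS30, MRPS15, MRPS6 and MRPL48 on each array, by vector; circles are untreated arrays, triangles are MEL arrays and lines are group means, and each panel has its own signal axis. MRPL19, MRPL39, MRPS30 and MRPS15 are lower with MEL in each vector and MRPS6 and MRPL48 are higher.

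Of the genes that did not pass, MRPS33 and MRPS26 are named for the signal of their probe sets, which lay near the top and at the bottom of the small subunit. MRPS33 read 10.64 to 10.83 on the untreated arrays and 10.63 to 10.77 with MEL, a difference of −0.04 ± 0.04 with a 95% interval of −0.14 to 0.05. MRPS26 read 8.91 to 9.04 and 8.82 to 9.09, a difference of 0.03 ± 0.05 (SE for both) with an interval of −0.07 to 0.13. In both genes the treatments overlapped, and the sign turned with the scaling of the arrays, MRPS33 to 0.011 after a repeated quantile normalization and MRPS26 to −0.016 after centring on medians. MRPS26 was called higher after the quantile normalization (0.11, limma adjusted p = 0.040). The bright MRPL40 was called lower by only 0.12 ± 0.04 (SE, limma adjusted p = 0.035), and this call was lost in 15 of 29 alternatives, 11 of them fits without 1 array, with an adjusted p of up to 0.25. MRPL47 (−0.26), MRPL43 (−0.27) and MRPS18B (−0.35) were called lower as well.

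The nuclear genes of the mitochondrial ribosome are known to share promoter elements for ETS-family factors such as GABP, for YY1 and for NRF1. Promoters of 300 bases, from 250 bases before to 50 after the annotated start, were taken from RefSeq (GRCh38.p14) and 67 of the 75 genes had one. MRPL2, MRPL10, MRPL13, MRPL15, MRPL21, MRPL23, MRPL35 and MRPS28 had none in the table. The 5 promoters below belong to 3 genes that fell and 2 that rose, and are given as examples. Capitals mark the letters CCGGAA (ETS), AAGATGG (YY1) and CCAAT on either strand. The NRF1 letters searched, GCGC repeated after any 2 bases, were absent from these 5. The windows are chr21:25607432-25607731 on the minus strand for MRPL39, chr5:44808697-44808996 on the plus strand for MRPS30, chr1:36464335-36464634 on the minus strand for MRPS15, chr21:34073328-34073627 on the plus strand for MRPS6 and chr11:73787624-73787923 on the plus strand for MRPL48, each printed 5′ to 3′ along its gene.
MRPL39: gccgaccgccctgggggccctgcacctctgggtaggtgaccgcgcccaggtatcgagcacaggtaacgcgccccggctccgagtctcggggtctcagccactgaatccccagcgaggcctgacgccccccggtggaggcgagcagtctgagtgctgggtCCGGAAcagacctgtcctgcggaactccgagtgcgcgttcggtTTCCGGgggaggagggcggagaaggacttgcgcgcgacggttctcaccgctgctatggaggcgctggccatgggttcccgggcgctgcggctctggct
MRPS30: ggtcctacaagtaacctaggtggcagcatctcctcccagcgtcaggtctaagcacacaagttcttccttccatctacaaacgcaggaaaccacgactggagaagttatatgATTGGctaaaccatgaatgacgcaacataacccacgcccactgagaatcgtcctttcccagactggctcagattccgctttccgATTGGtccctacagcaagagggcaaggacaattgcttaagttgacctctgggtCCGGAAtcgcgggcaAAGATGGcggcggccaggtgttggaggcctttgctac
MRPS15: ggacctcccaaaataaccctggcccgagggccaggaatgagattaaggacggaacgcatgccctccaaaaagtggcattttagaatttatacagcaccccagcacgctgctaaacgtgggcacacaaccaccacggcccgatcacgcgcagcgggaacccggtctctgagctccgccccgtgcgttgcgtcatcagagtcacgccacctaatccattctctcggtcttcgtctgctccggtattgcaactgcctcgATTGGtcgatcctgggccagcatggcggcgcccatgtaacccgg
MRPS6: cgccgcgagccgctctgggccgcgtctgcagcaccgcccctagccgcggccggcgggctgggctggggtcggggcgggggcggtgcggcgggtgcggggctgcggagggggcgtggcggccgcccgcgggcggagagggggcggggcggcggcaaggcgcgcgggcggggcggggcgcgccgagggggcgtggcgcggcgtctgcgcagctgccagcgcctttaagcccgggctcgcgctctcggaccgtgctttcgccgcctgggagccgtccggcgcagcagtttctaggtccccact
MRPL48: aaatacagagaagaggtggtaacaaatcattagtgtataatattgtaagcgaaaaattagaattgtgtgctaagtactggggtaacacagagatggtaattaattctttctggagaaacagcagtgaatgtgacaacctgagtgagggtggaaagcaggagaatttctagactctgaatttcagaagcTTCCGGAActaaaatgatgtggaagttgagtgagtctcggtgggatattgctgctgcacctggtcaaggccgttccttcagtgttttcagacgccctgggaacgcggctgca

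MRPL39 held 2 ETS matches and MRPS30 held 1 ETS match, 1 YY1 match and 2 CCAAT matches on the reverse strand (attgg). MRPS15 held a single CCAAT match, and MRPS6, with 82.0% G and C, held none of these motifs. The 2 ETS matches of MRPL48 overlap on opposite strands. Genes on both sides of 0 thus held the ETS letters. The promoter of MRPL19, the member with the lowest value, is not printed. It held no match to the ETS, YY1, CCAAT or NRF1 letters.

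Over all members, the ETS letters were found in 37 of 67 promoters (55.2%), beside 23.1% of the 15382 promoters of genes on the arrays. The YY1 letters were found in 22 (32.8%), beside 6.45%. The NRF1 letters were found in 9 (13.4%), beside 12.3%, the SP1 letters GGGCGG in 40 (59.7%), beside 58.9%, and the E-box CACGTG in 6 (8.96%), beside 8.90%. The CCAAT letters were found in 20 (29.9%), beside 36.1%. Both strands were searched in each case. The members were thus richer than all promoters in the ETS and YY1 letters, with a median of 60.3% G and C beside 63.0%.

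Among the 50 genes called lower that had a promoter, 28 held the ETS letters and 18 the YY1 letters, and of the 17 other members 9 and 4 did. The CCAAT letters were found in 20 of the 50 genes called lower (40.0%, beside 36.1% of all promoters) and in 0 of the 17 others. The SP1 letters were found in 27 of the 50 (54.0%, beside 58.9% of all promoters) and in 13 of the 17. These are 2 of 6 motifs searched, the differences were not tested, and a match is no evidence of a bound site.

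Within the single vectors fewer genes passed, since each contrast holds 6 arrays. In CALRwt cells 37 members were called lower and 1 higher, beside 10.5% and 7.60% of all genes. In CALRdel52 cells the counts were 26 lower and 1 higher, beside 8.03% and 5.23%. In CALRins5 cells they were 30 lower and 1 higher, beside 6.80% and 4.83%. Among genes within the signal range of the members, 23.2%, 16.4% and 14.4% were called lower in CALRwt, CALRdel52 and CALRins5 cells. Called higher were 8.80%, 6.25% and 8.23% of these genes. The median differences of the members were −0.25, −0.18 and −0.23. Without CALRwt MEL replicate 3 or without untreated replicate 3, 24 members were called in CALRwt cells. Without CALRdel52 MEL replicate 3 there were 10 calls in CALRdel52 cells, and 14 without untreated replicate 2 or 3. Without CALRins5 MEL replicate 1, the array with the GAPDH value of 1.33, 18 were called in CALRins5 cells, and 19 without untreated replicate 3.

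The signs were shared across vectors more than the calls. For 66 of the 75 genes the difference was below 0 in each of the 3 vectors, for 5 it was above 0 in each, and for 4 the sign was mixed. Called lower in all 3 vectors were 16 genes, 8 in each subunit by symbol. In the large subunit these were MRPL3, MRPL10, MRPL13, MRPL19, MRPL35, MRPL39, MRPL44 and MRPL45. In the small subunit they were MRPS7, MRPS9, MRPS11, MRPS15, MRPS17, MRPS27, MRPS28 and MRPS30, the last by its symbol only. MRPL10, MRPL13, MRPL35 and MRPL45 are named here after their values were seen. A further 16 were called lower in 2 vectors, 13 in 1, and 28 were called in none. Among all genes, not matched for signal, 3.85% were called lower in 3 vectors, 4.08% in 2 and 5.63% in 1. The contrasts of the vectors do not share arrays, but they share the estimate of the spread.

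Without a model, the arrays of treated and untreated cells did not overlap for most genes. In CALRwt cells all MEL arrays lay below all untreated arrays for 57 genes and above them for 7, beside 19.4% and 19.3% of all genes. In CALRdel52 cells this held for 40 and 3 genes, beside 16.7% and 15.4%, and in CALRins5 cells for 50 and 5 genes, beside 17.3% and 17.4%. Over all 18 arrays, 23 genes were lower and 2 were higher without overlap, beside 6.23% and 2.65%. These shares of all genes were not matched for signal.

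Differences between the vectors were few. In untreated cells no member was called between mutated and CALRwt cells (0% of all genes; limma, 0 members with an unadjusted p under 0.05, beside 5.37% of all genes, and 0 with a linear model without moderation), and the values ran from −0.17 to 0.12. Between CALRdel52 and CALRwt cells 0 were called as well, beside 0.0556% of all genes, with 10 members and 9.46% of all genes under an unadjusted 0.05 and a median of −0.07. Between CALRins5 and CALRwt cells the count was 0, beside 0.0101%, with 3 members and 5.85% of all genes under an unadjusted 0.05 and a median of 0.03. The widest 95% interval of a member extended 0.27 to either side of the estimate in these last comparisons.

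CALRins5 and CALRdel52 cells without MEL differed in 2 members, beside 1.13% of all genes, and 27 had an unadjusted p under 0.05, beside 13.9%. MRPS22, a mitochondria-specific protein of the small subunit, read 11.00, 10.94 and 11.03 with CALRins5, 10.54, 10.56 and 10.62 with CALRdel52 and 10.85, 10.90 and 10.85 with CALRwt. The CALRins5 arrays were highest and the CALRdel52 arrays lowest, with no overlap between the vectors. The difference was 0.42 ± 0.07 (SE, limma adjusted p = 0.030). Its 4 probe sets all end in x_at, which marks probes prone to cross-hybridise, and gave 0.33 to 0.43.

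MRPL39 was the other gene, with 0.41 ± 0.08 (SE, limma adjusted p = 0.048) between CALRins5 and CALRdel52. Its CALRwt arrays lay between those of the other vectors. The dim probe set (mean signal 3.19) gave −0.045. Both calls were lost when the GAPDH difference entered the fit and when any of 7 of the 9 untreated arrays was left out. Without CALRwt replicate 2, 1 call was left. Over all alternatives the call of MRPS22 was kept in 10 of 18 and that of MRPL39 in 6 of 19. With probe sets ending in x_at or s_at left out, MRPS22 was not measured and MRPL39 was read from its dim probe set alone. MRPS15 (0.36, adjusted p = 0.053), MRPL47 (0.34, adjusted p = 0.089) and MRPL48 (−0.33, adjusted p = 0.094) did not pass (limma). Of the 75 members, 19 lay below 0 in this comparison and the median was 0.08, beside 0.01 over all genes.

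With MEL no member was called between vectors. The background was 0.0860% for mutated against CALRwt cells, 0.0506% for CALRdel52 and 0.0759% for CALRins5 against CALRwt, and 0.0759% for CALRins5 against CALRdel52. Unadjusted p under 0.05 (limma) were seen for 2, 1, 4 and 6 members, beside 7.66%, 8.24%, 7.46% and 8.21% of all genes, and the linear model without moderation also gave 0 calls in each. MRPL39, for example, still had 0.23 between CALRins5 and CALRdel52 cells, with a 95% interval of 0.06 to 0.39 and an adjusted p of 0.46 (limma).

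The response to MEL was compared between mutated and CALRwt cells as an interaction. It was called for 0 of the 75 members and for 0% of all genes (limma), 1 member had an unadjusted p under 0.05, beside 4.49% of all genes, and the linear model without moderation gave 0. The differences ran from −0.19 (MRPL24) to 0.27 (MRPS18B), with a median of 0.05. MRPS18B lost 0.53 with CALRwt, 0.40 with CALRdel52 and 0.12 with CALRins5, and its interval was −0.05 to 0.60. For MRPL19, MRPL39 and MRPS15, responses in mutated and CALRwt cells differed by 0.10 (−0.24 to 0.43), 0.09 (−0.11 to 0.30) and −0.06 (−0.26 to 0.14). The intervals of all members lay between −0.44 and 0.61, so a difference in response is not shown to be absent for any of them.

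The other genes of the pathway were taken from lists set by function, which differed in direction with MEL. Of the 4 mitoribosome proteins with other names that were measured, 3 were called lower and 0 higher, CHCHD1 (−0.19), GADD45GIP1 (−0.18) and PTCD3 (−0.13). Of 17 translation factors and related genes 11 were called lower and 0 higher, with a median of −0.24. These included MTFMT, which formylates the initiator methionyl-tRNA (−0.57), SLIRP, an RNA-binding partner of LRPPRC (−0.49), the elongation factor GFM1 (−0.48) and OXA1L, which inserts new proteins into the inner membrane (−0.40). Each of the groups is read beside the 18.1% called lower and 18.6% called higher among all genes. Among genes within the signal range of the members these shares were 37.4% and 18.8%. No share matched to the signals of each list was computed.

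The list set for assembly of the particle and modification of its RNA was split, with 12 of 26 called lower and 6 higher and a median of −0.11. Its lowest values were those of PTCD2 (−0.87), FASTKD2 (−0.48), RPUSD4 (−0.47) and DDX28 (−0.35). For PTCD2 a role in assembly or in modification of ribosomal RNA is not claimed here. Of 11 genes for mitochondrial DNA and transcription 8 were called lower and 1 higher, with a median of −0.27. SSBP1, the single-strand DNA-binding protein (−0.46), the poly(A) polymerase MTPAP (−0.43) and the transcription factor TFB2M (−0.39) fell, and POLRMT, the RNA polymerase, rose (0.40).

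In mitochondrial protein quality control 5 of 12 were called lower and 2 higher (median −0.05). The chaperonins HSPE1 (−0.34) and HSPD1 (−0.29) and CLPX (−0.34) fell, and the protease LONP1 rose (0.27). Among regulators of nuclear mitochondrial genes 1 of 12 was called lower and 4 were called higher (median 0.02). CREB1 was the lower gene (−0.28), and SP1 (0.28), TFE3 (0.28), NRF1 (0.21) and GABPB1, a subunit of the ETS-family factor GABP (0.19), were higher. GABPB1 is named after its value was seen, to complete this count.

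Respiratory chain and ATP synthase subunits encoded in the nucleus were called lower in 30 of 52 cases and higher in 1, with a median of −0.13. Cytosolic ribosomal protein genes were called lower in 7 of 56 cases and higher in 1, with a median of −0.04 and quartiles of −0.07 and −0.01. The quartiles of the mitochondrial ribosomal protein genes were −0.37 and −0.12, and thus did not overlap with those of the cytosolic set. The sets were not matched for signal, and why they differ was not tested.

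**Figure D4:**
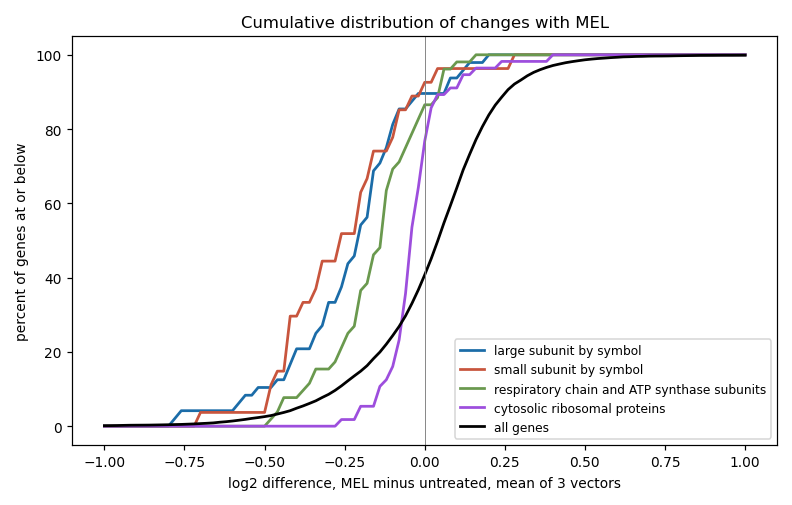
Percent of genes at or below a given log2 difference of MEL minus untreated (mean of 3 vectors), for the large subunit, the small subunit, the nuclear respiratory chain and ATP synthase subunits, the cytosolic ribosomal proteins and all genes. The medians are −0.21, −0.26, −0.13, −0.04 and 0.04.

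The remaining probe sets of the members gave a second reading of the same RNA. For 38 genes the brightest probe set was the only one, and the other 37 had 65 further probe sets. Of these 65, 31 were called lower, 4 higher and 30 were not called, beside 16.6% lower and 17.1% higher among all 54675 probe sets. The sign was that of the brightest probe set for 53. Many of the uncalled ones had a low signal.

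All 4 probe sets that were called higher belonged to genes whose brightest probe set was called lower. MRPL42 had −0.43 and −0.16 on probe sets with mean signals of 10.67 and 8.85, and 0.29 (adjusted p = 0.0054) on one with a signal of 7.11. MRPS25 had −0.20 on the brightest, 0.30 (adjusted p = 0.0011) on one with a signal of 6.93 and −0.08 on another. MRPL23 (−0.18 against 0.18) and MRPS23 (−0.26 against 0.18) each had a second probe set of low signal, 4.67 and 4.78. Which transcripts the dim probe sets read was not tested, and no direction is settled for these 4 genes (limma for all).

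**Figure D5:**
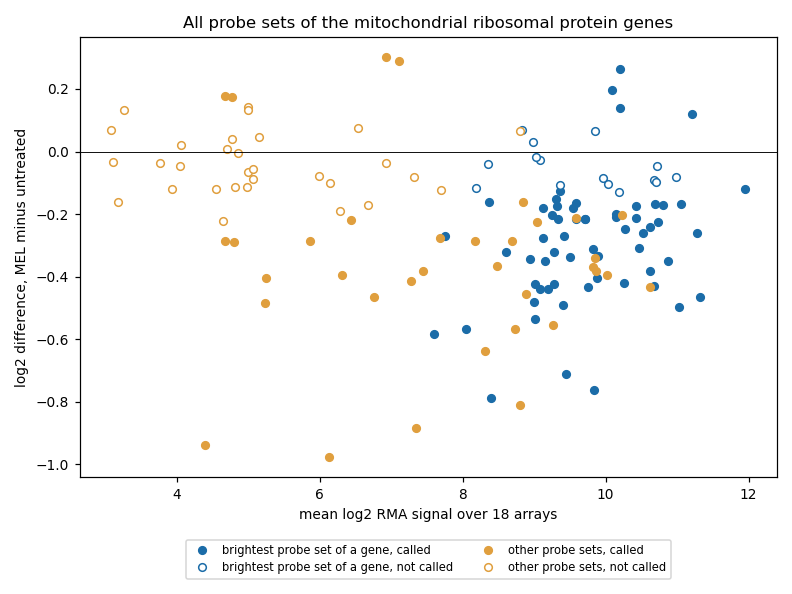
Log2 difference of MEL minus untreated (mean of 3 vectors) against the mean log2 RMA signal over 18 arrays for all 140 probe sets of the 75 genes. Blue points are the brightest probe set of a gene, orange points the other probe sets, filled where called. The brightest ones all lie above a signal of 7.5 and most lie below 0. Uncalled orange points lie mostly at low signals, whereas uncalled blue points reach a signal of 10.98.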

How the data were processed

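Expression was measured on 18 Affymetrix HG-U133 Plus arrays of K562 cells, 3 for each of 6 groups of vector and treatment taken from the sample labels. The authors deposited log2 RMA values made in Partek, with 1 value for each of 54675 probe sets and array. RMA corrects background, equalises arrays and summarises probes, and the sources used here do not say whether all arrays went through it as 1 set. The supplement of the study names another array design, but the probe sets are those of HG-U133 Plus. The values were used without a filter. Genes were named from the platform's probe table, in which 41097 probe sets name 1 gene, 1801 several and 11777 none.

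Contrasts came from lmFit and eBayes of limma 3.58.1 under R 4.3.3, with p-values adjusted by Benjamini-Hochberg over all probe sets, at a threshold of 0.05. Comparisons of untreated groups used the 9 untreated arrays, and all others the 18 arrays. At the methods' unadjusted 0.01, the linear model without moderation, which stands for the methods' ANOVA, called 64 members and 28.4% of all probe sets for MEL over the 3 vectors, and 0 members and 1.48% for mutated against CALRwt cells without MEL. The functions were tested on simulated data. The small number of arrays limits the precision.

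The members, the gene lists and the tests were chosen with earlier results of these data known. After the values were seen, MRPL55 was moved to the mitochondria-specific proteins, where it belongs. Named genes were the 10 lowest and up to 5 highest called members, members called between vectors, the 3 brightest and 3 dimmest of each subunit, members with probe sets called in opposite directions and up to 4 called genes of each other list. Members whose brightest probe set ends in x_at were to appear in counts, with MRPS22 as the exception. Promoter letters were searched in RefSeq windows of GRCh38.p14. Python 3.11.15 with matplotlib 3.10.9 drew the figures.

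The alternatives were the replicate number as a block, a repeated quantile normalization, centring on medians, bright probe sets only, no probe sets ending in x_at or s_at, trend and robust options, no moderation, other arrays in the fit, a GAPDH covariate, leaving out arrays, the mean of a gene's probe sets and another subunit for MRPS30 and MRPS18A.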

Additional observations from a re-analysis of the deposited data

How the results depend on the processing

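Over the 3 vectors the count of members called with MEL was 60, and it stayed between 56 and 61 when each array was left out in turn. In CALRwt cells the 38 calls ranged from 24 to 41, in CALRdel52 cells the 27 calls from 10 to 28 and in CALRins5 cells the 31 calls from 18 to 32, and the 2 calls between CALRins5 and CALRdel52 cells without MEL from 0 to 3. Without probe sets ending in x_at or s_at, which leaves 44 genes and not MRPS22, the count was 28 over the 3 vectors, 24 lower and 4 higher. Between CALRins5 and CALRdel52 it was 0. In CALRwt, CALRdel52 and CALRins5 cells they were 16, 11 and 14. With only the compared arrays in the fit, 7 and 16 were called in CALRdel52 and CALRins5 cells. With the GAPDH covariate 25 were called in CALRwt cells, 11 in CALRins5 cells and 0 between CALRins5 and CALRdel52. Without CALRins5 MEL replicate 1 and CALRdel52 MEL replicate 3 together, 14 were called in CALRdel52 cells, and 51 were lower and 3 higher over the 3 vectors. The calls between CALRins5 and CALRdel52 without MEL were 1 after centring, 7 with bright probe sets only, 12 with trend and robust options and 6 with all 18 arrays, and 2 were called between CALRdel52 and CALRwt without MEL with trend and robust options. Apart from fewer arrays and genes, the cause of these shifts was not tested. Among the alternatives, the share over all genes is known only for MEL over the 3 vectors with centring, quantile normalization or the GAPDH covariate. The other counts under alternatives have no such share beside them and are not read as results about the members.

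The repeated quantile normalization gave 42 members lower and 7 higher over the 3 vectors, with a median of −0.14 beside 0.03 over all genes, of which 15.0% were lower and 19.7% higher, and centring gave 63 and 2, with −0.26 beside −0.01. All 42 were among the 56, and all 56 among the 63. Under the GAPDH covariate the 38 lower genes were among the 56, and MRPS6 and MRPL48 were the 2 higher ones. Reversed signs were seen for MRPS33 after quantile normalization (0.011), MRPS26 after centring (−0.016), MRPS25 as the mean of its probe sets (0.01), and, without x_at and s_at probe sets, MRPL23 (0.18), MRPL42 (0.29, limma adjusted p = 0.0059) and MRPL39 between CALRins5 and CALRdel52 (−0.045). With the replicate block 55 members were lower and 4 higher over the 3 vectors, and no count of calls moved by over 1.5 times. Deviations of arrays with the same replicate number correlated at −0.22 to 0.23, with a median of 0.06 and over 0.1 in 16 of 45 pairs. With different numbers the range was −0.25 to 0.25, with a median of −0.02 and over 0.1 in 9 of 90 pairs. Among untreated arrays the pairs of the same number ran from 0.04 to 0.23. The labels do not say whether equal numbers share an experiment, and the main fit did not pair them.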
